A study of Homo sapiens with 12 samples.

Results

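Ribonucleotide reductase and the enzymes of thymidylate supply were followed at the RNA level in SUM159, an established line of triple-negative breast cancer. The 7 genes are RRM1, RRM2, RRM2B, TYMS, TK1, DTYMK and DUT. They were chosen by name for their place in the making of DNA precursors, from 20477 genes present in all 4 of the authors' deposited comparison tables. The choice, like that of the lists below, was made with earlier results of these data known. Shares over all genes are therefore given beside the counts as description only. All 7 were tested in each table, so none was lost to a filter on low counts.

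The study has 4 groups of 3 libraries: shCTRL cells left untreated, shCTRL cells given 140 nM gemcitabine for 24 h, shE4F1 cells left untreated, and shE4F1 cells given the same gemcitabine treatment. shCTRL is a control hairpin and shE4F1 a hairpin RNA that targets E4F1, which encodes a transcription factor with zinc fingers and ubiquitin ligase activity. All groups come from one established line that grew with serum, insulin and hydrocortisone, and the labels do not give the number of hairpins against E4F1 or the cultures that the libraries came from. The p-values therefore speak only of library-to-library spread, which may be technical.

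Ribonucleotide reductase turns ribonucleoside diphosphates into deoxyribonucleoside diphosphates. Its large subunit, RRM1, holds the catalytic site, and a small subunit, RRM2 in cycling cells or the p53-inducible RRM2B, carries the radical that starts the reaction. Thymidylate comes either from dUMP through thymidylate synthase (TYMS), which uses reduced folate, or from thymidine through thymidine kinase 1 (TK1); thymidylate kinase (DTYMK) then adds the next phosphate, and the dUTPase DUT hydrolyses dUTP to dUMP, which keeps uracil out of DNA and feeds TYMS. Gemcitabine is a deoxycytidine analog whose diphosphate inhibits ribonucleotide reductase and whose triphosphate is built into DNA in competition with dCTP. RRM2, TYMS and TK1 are textbook genes of the G1/S transition and S phase, controlled by E2F factors.

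Since 6 of the 7 genes were called together in the knockdown comparisons below, the sequence next to their start sites is shown for the words that the promoters of cell cycle genes often hold. RefSeq promoter windows (GRCh38.p14, from 250 bases before to 50 bases after a start site) were found for 6 of the 7 genes, all but RRM2B. They were searched on both strands for CCAAT, the core of the NF-Y site, for the E2F-like words TTTGGCGC, TTTCGCGC, TTTCCCGC and TTTGCCGC, and for TTTGAA, the core of the CHR element of G2/M genes. A gene was counted when any of its windows held a word; RRM2 and TK1 have 2 windows each and DUT has 4. RRM1, RRM2, TK1 and DTYMK held CCAAT, TYMS and DUT held an E2F-like word, and RRM1 and DUT held TTTGAA, which is not printed below. The RRM2 stretch below, 90 bases at chr2:10122604-10122693 on the plus strand, is printed because it holds 3 copies of CCAAT in near-identical surroundings, at -123, -93 and -66 from the start site. The second RRM2 window holds 1 more CCAAT, at -249 from its own start site. TK1 has 2 copies written on the other strand (ATTGG), and DTYMK 2 copies on its own strand. DUT holds 2 E2F-like words within 46 bases. Capitals mark the words, and each sequence reads along its gene, 5′ to 3′.
RRM2 (chr2:10122604-10122693, plus): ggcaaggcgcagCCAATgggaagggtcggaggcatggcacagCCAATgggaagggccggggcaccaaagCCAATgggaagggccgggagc
RRM1 (chr11:4094647-4094671, plus): atgtccatatCCAATggggcccatg
TK1, farther copy (chr17:78187115-78187139, minus): ccgggcgctgATTGGccccatggcg
TK1, nearer copy (chr17:78187084-78187108, minus): ccggctcgtgATTGGccagcacgcc
DTYMK, farther copy (chr2:241686893-241686917, minus): ccggccccggCCAATcccttcgaat
DTYMK, nearer copy (chr2:241686825-241686849, minus): ttgacgccggCCAATgggagctccg
TYMS (chr18:657604-657631, plus): cgggacggccGCGGGAAAaggcgcgcgg
DUT (chr15:48332142-48332187, plus): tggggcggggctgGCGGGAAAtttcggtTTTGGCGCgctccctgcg
CCAAT is a common word, found in 34.6% of all 35116 RefSeq windows of this length and in any window of 39.7% of the 27305 genes, where 4 of the 6 genes here held it. The E2F-like words were found in 3.31% of windows and 3.99% of genes, and TTTGAA in 15.2% of windows and 18.2% of genes. These matches describe letters in a window and were not tested for binding.

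The genes lie on 6 chromosomes, so none but RRM2 and DTYMK share one, and those are at opposite ends of it. In GRCh38 with GENCODE 29, RRM1 (ENSG00000167325) spans chr11:4094707-4138876 on the plus strand and RRM2 (ENSG00000171848) spans chr2:10120698-10131419 on the plus strand. RRM2B (ENSG00000048392) spans chr8:102204502-102239118 on the minus strand, TYMS (ENSG00000176890) chr18:657604-673578 on the plus strand and TK1 (ENSG00000167900) chr17:78174075-78187233 on the minus strand. DTYMK (ENSG00000168393) spans chr2:241675742-241686991 on the minus strand and DUT (ENSG00000128951) chr15:48331011-48343373 on the plus strand. All are annotated as protein coding.

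The knockdown is visible in the targeted gene. In the authors' deposited tables E4F1 fell by 0.99 ± 0.261 (log2 fold change ± its standard error, SE, 3 libraries against 3) in untreated cells, and had an adjusted p of 0.000778. Under gemcitabine it fell by 0.91 ± 0.162 in the authors' deposited table, with an adjusted p of 1.47e-07. Derived from 2 other tables, this value was -0.89 with an adjusted p of 0.0772. Those 2 tables share the untreated shCTRL libraries, so the summed standard error behind that p is too large. Gemcitabine itself left E4F1 uncalled in shCTRL cells, at -0.29 ± 0.250 in the authors' deposited table (adjusted p 0.433). Every adjusted p from a deposited table is DESeq2's, corrected by the Benjamini-Hochberg method, and a gene is called higher or lower here when it is under 0.05. Cell type markers were read per kb of merged exon, from the means over the untreated groups in the authors' deposited table. All 6 mesenchymal markers were tested, from 533.1 for ZEB1 to 12899 for VIM, and 7 of 10 luminal markers. The luminal markers ranged from 0.665 for ESR1, the estrogen receptor, and 0.864 for CDH1, E-cadherin, through 117 for GATA3, 274 for ERBB2 and 389 for KRT8 to 724 for KRT18, so 4 of the 7 were above 100 per kb. Of 5 blood cell and 5 endothelial markers, 3 and 3 were tested, from 0.962 per kb for TEK to 274 for the endothelial receptor KDR, which was higher with the knockdown by 2.34 ± 0.196 in the authors' deposited table (adjusted p 2.17e-30). Any part of KDR-expressing cells in the values of the 7 genes was not tested.

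Knockdown of E4F1 lowered both the ribonucleotide reductase genes of cycling cells and all 4 genes of thymidylate supply in untreated cells, while RRM2B did not pass the test. Of the 6 called genes TK1, TYMS and DTYMK had the lowest values and DUT the least low. In all, 6 of the 7 genes were lower and 0 higher, where 19.3% of the 19472 genes with an adjusted p were lower in this comparison. The median log2 fold change of the 7 genes was -0.88, beside -0.01 over all genes tested.

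For the large subunit RRM1, the mean normalized count of the authors' deposited table splits by its fold change into 7484 in untreated shCTRL and 4441 in untreated shE4F1 cells. The log2 fold change of RRM1 in the authors' deposited table was -0.75 ± 0.199 (adjusted p 0.000776). RRM2, the small subunit of cycling cells, went from 5757 to 3137 by the same split, which is a log2 fold change of -0.88 ± 0.184 in the authors' deposited table (adjusted p 1.44e-05). The subunits of the S-phase enzyme were thus at 0.593 (RRM1) and 0.545 (RRM2) of their control level. RRM2B, the alternative small subunit, stood at 3606 in shCTRL and 3653 in shE4F1 cells. Its log2 fold change in the authors' deposited table was 0.02, with a 95% interval from -0.24 to 0.28 and an adjusted p of 0.939. The interval leaves out a fall of the size seen in RRM1 or RRM2.

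On the thymidylate side 3 of the 4 genes had lower values than RRM1 and RRM2, although the differences between genes were not tested. TYMS, which makes dTMP from dUMP, went from 2954 in shCTRL to 1344 in shE4F1 cells, a log2 fold change of -1.14 ± 0.2195 in the authors' deposited table (adjusted p 2.15e-06). TK1, which salvages thymidine, had the lowest value of the 7, from 3509 to 1503 and a log2 fold change of -1.22 ± 0.198 in the authors' deposited table (adjusted p 9.89e-09). DTYMK, on which both routes to dTTP depend, went from 1093 to 538, a log2 fold change of -1.02 ± 0.166 in the authors' deposited table (adjusted p 1.20e-08). All 3 were left with between 0.428 and 0.492 of their control level. DUT went from 3982 to 2903, a log2 fold change of -0.46 ± 0.177 in the authors' deposited table (adjusted p 0.0295). The call of DUT did not survive centring the table on its median gene, which gave -0.41 and an adjusted p of 0.0627. Among the 12691 genes of the authors' deposited table with a mean of at least 50, 4.40% lay below TK1, 5.28% below TYMS, 7.08% below DTYMK, 10.0% below RRM2 and 13.2% below RRM1. DUT stood higher in that order, with 25.1% below it.

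**Figure D1:**
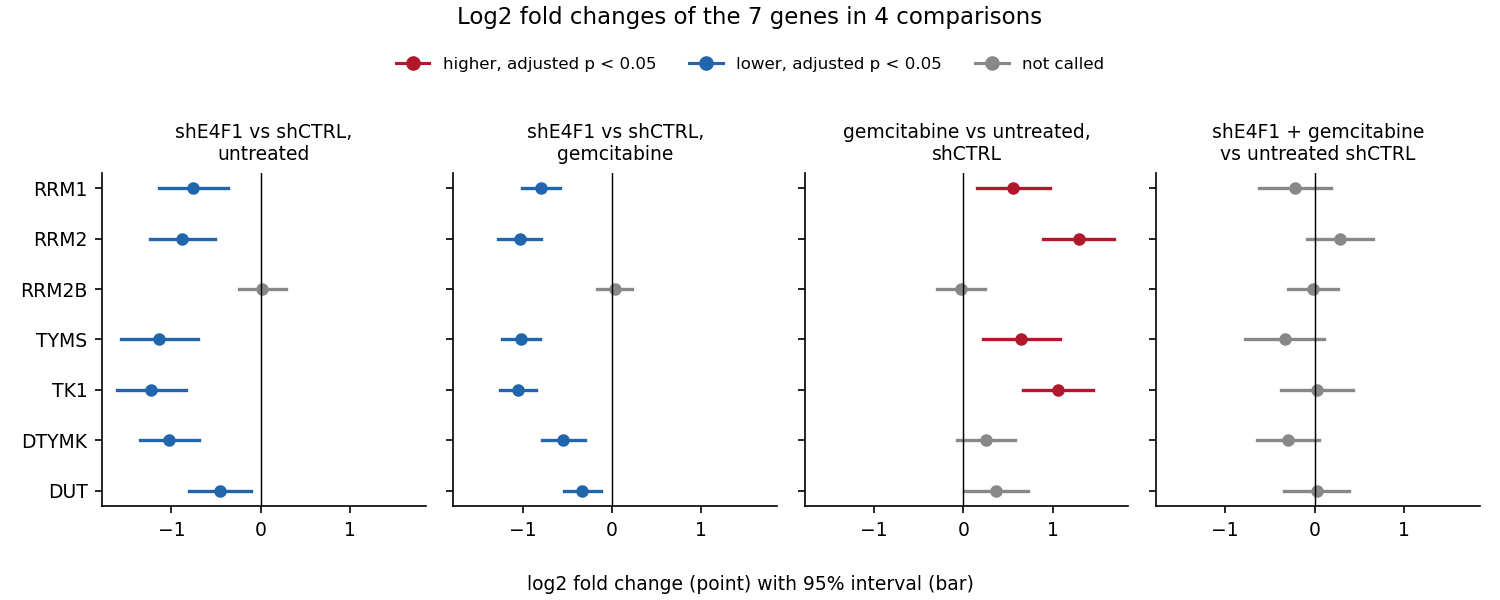
Log2 fold changes of the 7 genes (points) with their 95% intervals (bars) in the 4 deposited comparisons, red where called higher, blue where called lower and grey where not called. Of the 7 genes, 6 are blue in both knockdown comparisons, 4 are red under gemcitabine in shCTRL cells, none is called in shE4F1 cells under gemcitabine against untreated shCTRL cells, and RRM2B is grey and near 0 in all panels.

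Under gemcitabine the same comparison of hairpins again gave 6 lower genes of 7 and 0 higher, in a table where 20.8% of genes were lower. The median of the 7 log2 fold changes was -0.79, against 0.00 over all genes tested. Here TK1, RRM2 and TYMS stood close together, with levels 2.03 to 2.08 times lower, and DTYMK and DUT had lost less. RRM1 stood at 12971 in shCTRL and 7479 in shE4F1 cells under gemcitabine, a log2 fold change of -0.79 ± 0.107 in the authors' deposited table (adjusted p 1.35e-12). RRM2 stood at 16994 and 8291, a log2 fold change of -1.04 ± 0.124 in the authors' deposited table (adjusted p 1.01e-15). RRM2B, at 4038 and 4121, was again uncalled, with a log2 fold change of 0.03 and a 95% interval from -0.16 to 0.22 in the authors' deposited table (adjusted p 0.861).

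For thymidylate supply, TYMS stood at 5522 in shCTRL and 2725 in shE4F1 cells under gemcitabine, a log2 fold change of -1.02 ± 0.107 in the authors' deposited table (adjusted p 5.52e-20). TK1 stood at 8745 and 4211, a log2 fold change of -1.05 ± 0.104 in the authors' deposited table (adjusted p 1.00e-22). These 2 genes, the entry points of the synthesis and salvage routes, differed between the hairpins by nearly the same fold. DTYMK stood at 1502 and 1028, a log2 fold change of -0.55 ± 0.123 in the authors' deposited table (adjusted p 4.38e-05). DUT stood at 5934 and 4715, a log2 fold change of -0.33 ± 0.105 in the authors' deposited table (adjusted p 0.00533). DTYMK and DUT lost their calls when the comparison was instead derived as the difference between 2 other deposited tables. The values were then -0.56 and -0.34, with adjusted p-values of 0.0989 and 0.464. That route sums the variances of 2 tables that share the untreated shCTRL libraries, so its standard error is too large. The lost calls therefore cannot show whether the deposited calls are fragile. Standard errors of the 7 genes were 0.0985 to 0.124 here, against 0.132 to 0.2195 in untreated cells.

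The untreated knockdown effect was subtracted from the one under gemcitabine, using both deposited tables, which share no library. None of the 7 genes was called in this difference, where 5.43% of 20923 genes were, and only DTYMK had an unadjusted p under 0.05. The difference for DTYMK was 0.48 (95% interval 0.07 to 0.88, unadjusted p 0.0215, adjusted p 0.186), that is, a smaller reduction under gemcitabine. For RRM2 it was -0.16 (95% interval -0.59 to 0.27) and for TK1 0.17 (95% interval -0.27 to 0.61). RRM1 gave -0.04 (95% interval -0.48 to 0.40), TYMS 0.12 (95% interval -0.36 to 0.60), DUT 0.12 (95% interval -0.28 to 0.53) and RRM2B 0.01 (95% interval -0.31 to 0.33). These intervals are too wide to show that the knockdown effect was the same with and without the drug. Of all the genes called in this difference 51.6% were higher, and 35.3% were after centring on the median gene.

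Gemcitabine raised RRM2, TK1, TYMS and RRM1 in shCTRL cells, the groups that share the control hairpin. In all, 4 of the 7 genes were higher and 0 lower, where 14.5% of the 20002 genes with an adjusted p were higher, and 5 had an unadjusted p under 0.05. The comparison shares its untreated libraries with the untreated knockdown comparison and its treated libraries with the other one, so the values are given side by side and not tested against each other.

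RRM2 rose most, from 6939 in untreated to 16983 in treated shCTRL cells, which is a 2.45-fold change and a log2 fold change of 1.29 ± 0.201 in the authors' deposited table (adjusted p 4.26e-09). RRM1, its partner subunit, went from 8825 to 13010, a log2 fold change of 0.56 ± 0.207 in the authors' deposited table (adjusted p 0.0283). The RRM1 call was lost by the route through the other tables, at 0.57 and an adjusted p of 0.0766. Those tables share the treated shE4F1 libraries, so the summed standard error is too large and the lost call decides nothing. RRM2B stood at 4155 and 4080, with a log2 fold change of -0.03 and a 95% interval from -0.30 to 0.25 in the authors' deposited table (adjusted p 0.917). Of the 2 small subunits, then, RRM2 passed the test and RRM2B did not.

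TK1 went from 4204 to 8740, a 2.08-fold change and a log2 fold change of 1.06 ± 0.200 in the authors' deposited table (adjusted p 2.20e-06). TYMS went from 3518 to 5525, a log2 fold change of 0.65 ± 0.221 in the authors' deposited table (adjusted p 0.0153). DUT stood at 4643 and 5970, a log2 fold change of 0.36 ± 0.184 in the authors' deposited table (unadjusted p 0.0484, adjusted p 0.133). DTYMK stood at 1270 and 1517, a log2 fold change of 0.26 ± 0.164 in the authors' deposited table (adjusted p 0.260). Both enzymes that make dTMP were thus called with gemcitabine, and the kinase after them and the dUTPase were not; the difference between genes was not tested. Among the 13079 genes with a mean of at least 50 in the authors' deposited table, 96.7% lay below RRM2, 95.1% below TK1, 89.4% below TYMS and 86.8% below RRM1.

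**Figure D2:**
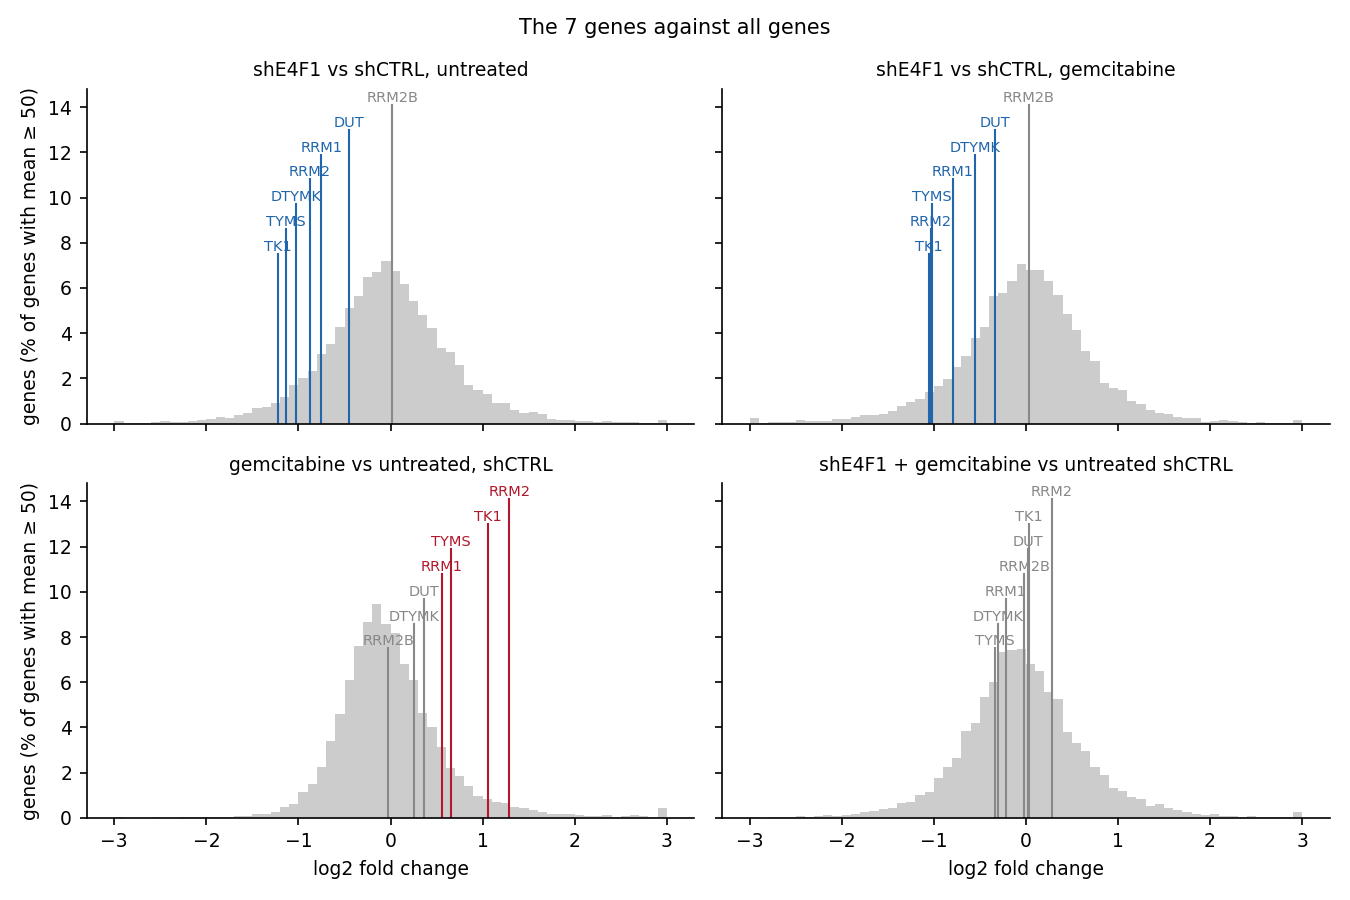
Distribution of log2 fold changes over genes with a mean normalized count of at least 50 (grey bars, percent of genes per bin, values beyond the ends gathered in the outermost bins) with the 7 genes as vertical lines, red higher, blue lower, grey not called; line heights only separate the names. TK1, TYMS and DTYMK lie in the lower tail with the knockdown in untreated cells, RRM2 and TK1 in the upper tail with gemcitabine, and all 7 lie near the centre in the bottom right panel.

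When shE4F1 cells under gemcitabine were set against untreated shCTRL cells, none of the 7 genes was called and none had an unadjusted p under 0.05 by the authors' DESeq2, where 32.2% of genes were called in either direction. RRM2 stood at 6235 in untreated shCTRL cells and 7594 in treated shE4F1 cells, a log2 fold change of 0.28 in the authors' deposited table (95% interval -0.09 to 0.66, adjusted p 0.269). TK1 was at 3797 and 3874, a log2 fold change of 0.03 in the authors' deposited table (95% interval -0.37 to 0.43, adjusted p 0.940). The lowest of the 7 values was that of TYMS, -0.34 in the authors' deposited table (95% interval -0.77 to 0.10, adjusted p 0.263). RRM1 had -0.22 (adjusted p 0.457), DTYMK -0.30 (adjusted p 0.195), DUT 0.02 (adjusted p 0.947) and RRM2B -0.02 (adjusted p 0.949) in the authors' deposited table. E4F1 remained low in this comparison, at -1.18 ± 0.267 in the authors' deposited table (adjusted p 8.55e-05). The intervals of the 7 genes allow differences from -0.77 to 0.66 on the log2 scale, so equality with the untreated control is not shown.

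The effect of gemcitabine within shE4F1 cells was derived as that comparison minus the untreated knockdown comparison. Both contain the untreated shCTRL libraries, so the summed standard error is too large. With it, 2 of the 7 genes were higher, RRM2 and TK1, where 0.925% of 21080 genes were. The difference was 1.16 ± 0.265 for RRM2 (adjusted p 0.00237) and 1.25 ± 0.285 for TK1 (adjusted p 0.00237). It was 0.80 ± 0.313 for TYMS (adjusted p 0.369), 0.72 ± 0.243 for DTYMK (adjusted p 0.161), 0.53 ± 0.285 for RRM1 (adjusted p 0.847) and 0.48 ± 0.257 for DUT (adjusted p 0.848), while RRM2B had -0.04. A standard error that takes out the shared libraries assumes that the variances of the tables add up. By that error 6 of the 7 genes were higher and RRM2B was not. Over all 20473 genes 2931 were then called, 49.9% of them higher. Of these 20473 genes, 8 had a negative variance and were left out.

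Levels can be set between genes only per length. Divided by merged exon length, which overstates the length of one transcript, the normalized count per kb in untreated shCTRL cells was highest for TK1 (1886) and RRM1 (1792). TYMS (1196), DUT (1084) and RRM2 (1082) followed, and RRM2B (650.0) and DTYMK (445.9) were lowest. In treated shCTRL cells, on the scale of another table, TK1 (4699) led, followed by RRM2 (3193), RRM1 (3105), TYMS (2236), DUT (1615), RRM2B (727.8) and DTYMK (612.8). No spread between libraries can be given for these levels, so neighbours such as DUT and RRM2 are not told apart.

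The ratio of the small subunits took a different value in each group. RRM2 per kb was 1.66 times RRM2B in untreated shCTRL cells and 0.895 times in untreated shE4F1 cells. Under gemcitabine it was 4.39 times in shCTRL and 2.1 times in shE4F1 cells. These values divide RRM2 by 5323 and RRM2B by 5548 bases. When the 1077 bases that RRM2 shares with another gene on its strand were left out of its length, an alternative added after the data were seen, the ratios were 2.09, 1.12, 5.50 and 2.63 in the same order, and RRM2 stood at 1356 per kb in untreated shCTRL cells. Which small subunit RNA was more abundant in untreated shE4F1 cells therefore depends on the length used. The shorter length applies only if reads in the shared bases were not counted for RRM2, which was not tested. The other gene, AC007240.1, had no row in any of the authors' deposited tables. RRM2 per kb was 0.604 and 0.554 times RRM1 in untreated shCTRL and shE4F1 cells, and 1.03 and 0.870 times RRM1 under gemcitabine. These ratios carry no error, as they rest on group means.

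**Figure D3:**
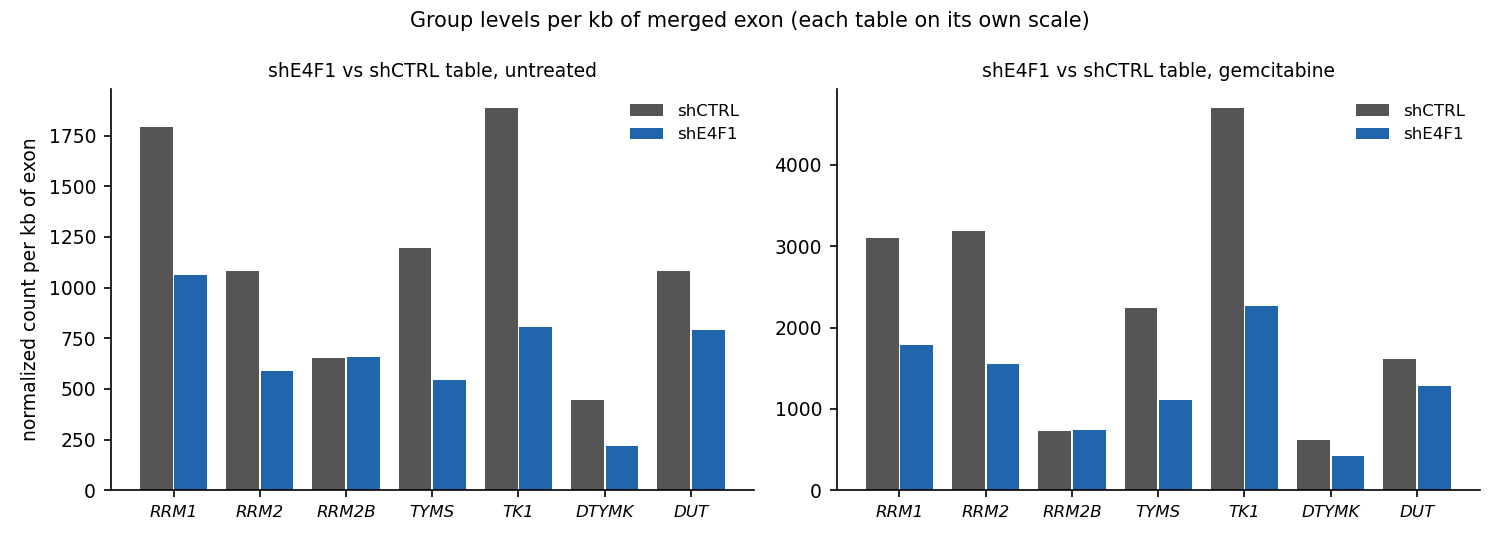
Normalized count per kb of merged exon for the 7 genes in shCTRL (grey) and shE4F1 (blue) cells, untreated on the left and under gemcitabine on the right; the panels come from separately scaled tables and carry no error bars, and levels were split from each table's mean by its fold change. By merged exon length RRM2 stands below RRM2B in untreated shE4F1 cells (ratio 0.895, or 1.12 without the shared bases of RRM2) and above it in the other 3 groups.

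Annotated overlaps touch TYMS most. ENOSF1, on the opposite strand, shares 967 of the 2470 exon bases of TYMS, and the strand setting of the authors' counting is not given in the sources used here. ENOSF1 itself had a log2 fold change of -0.59 with the knockdown in untreated cells (adjusted p 0.00777) and -0.08 under gemcitabine (adjusted p 0.762) in the authors' deposited tables. With gemcitabine in shCTRL cells ENOSF1 fell by 0.55 in the authors' deposited table (adjusted p 0.0139), opposite in sign to TYMS. The antisense transcript TYMSOS shares 183 bases and had a mean normalized count of 28.8 in untreated cells against 2149 for TYMS in the authors' deposited table. The antisense genes RRM1-AS1, with 63 shared bases, and AC023355.1 at DUT, with 533, had means of 6.98 and 30.5 in the authors' deposited table. RRM2 shares 1077 of 5323 bases with AC007240.1 on its own strand, which had no row in any of the authors' deposited tables. GENCODE 29 also names 3 pseudogenes of RRM2, 2 of TYMS and 8 of DUT, and 0 of these 13 had a row in any of the authors' deposited tables. Whether reads that also match such copies were left out of the counts of RRM2, TYMS and DUT was not tested.

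The wider pathway was read through lists of genes that supply nucleotides, whose counts stand beside the shares over all genes. With the knockdown 17.5% of all genes tested were higher and 19.3% lower in untreated cells, and 20.3% and 20.8% under gemcitabine. Gemcitabine in shCTRL cells left 14.5% higher and 13.5% lower, and in treated shE4F1 against untreated shCTRL cells 15.8% were higher and 16.3% lower.

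Among 5 folate genes that serve TYMS, 3 were lower and 0 higher with the knockdown in untreated cells (median -0.33), and 3 lower and 0 higher under gemcitabine (median -0.26). Only GGH was called in both: SHMT2 and FPGS were the others in untreated cells, and MTHFD1 and SHMT1 under gemcitabine. GGH, which trims folate polyglutamates, fell by 0.64 ± 0.165 in the authors' deposited table of untreated cells (adjusted p 0.000490). It fell by 0.38 ± 0.112 with the knockdown under gemcitabine (adjusted p 0.00242) and by 0.42 ± 0.172 in treated shE4F1 against untreated shCTRL cells (adjusted p 0.0468) in the authors' deposited tables. SHMT2, a mitochondrial source of one-carbon units, fell by 0.55 ± 0.132 in untreated cells, per the authors' deposited table (adjusted p 0.000189). With the knockdown under gemcitabine SHMT2 had 0.05 in the authors' deposited table (adjusted p 0.724).

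Among 7 genes of deoxynucleoside uptake and salvage, 3 were lower and 0 higher in untreated cells with the knockdown (median -0.36), and 4 lower and 1 higher under gemcitabine (median -0.56). The mitochondrial deoxyguanosine kinase DGUOK fell by 1.57 ± 0.141 in untreated cells in the authors' deposited table (adjusted p 1.41e-26). DCTD, which deaminates dCMP to the dUMP that TYMS uses, fell by 1.45 ± 0.138 in the authors' deposited table (adjusted p 5.75e-24). DGUOK and DCTD were also called lower in treated shE4F1 against untreated shCTRL cells, at -1.65 ± 0.158 (adjusted p 3.29e-23) and -1.32 ± 0.154 (adjusted p 4.83e-16) in the authors' deposited table, where none of the 7 genes was called. DCK, the kinase that activates gemcitabine, was called in none of the 4 deposited tables. CDA, which inactivates gemcitabine by deamination, rose by 0.66 ± 0.192 with the drug in shCTRL cells, per the authors' deposited table (adjusted p 0.00362). TK2, the mitochondrial thymidine kinase, fell by 0.79 ± 0.141 there in the authors' deposited table (adjusted p 4.37e-07), opposite in sign to TK1. With the knockdown under gemcitabine CDA was lower, at -0.56 ± 0.142 (adjusted p 0.000286). It was uncalled in treated shE4F1 against untreated shCTRL cells, at 0.09. SLC29A1, of nucleoside uptake, was lower with the knockdown in untreated cells (-0.45 ± 0.167, adjusted p 0.0234) and under gemcitabine (-0.60 ± 0.095, adjusted p 2.98e-09).

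Of 9 measured nucleotide kinases, 2 were higher and 2 lower with the knockdown in untreated cells and 3 higher and 2 lower under gemcitabine, which is near the shares over all genes. In shCTRL cells 3 were lower and 0 higher with gemcitabine, beside 13.5% of all genes lower. CMPK1, the kinase for CMP, UMP and dCMP, was higher with the knockdown by 0.85 in untreated cells in the authors' deposited table. Of 5 genes of de novo pyrimidine synthesis, 2 were lower and 0 higher with the knockdown in untreated cells, and 2 lower and 1 higher under gemcitabine. Gemcitabine lowered 3 and raised 0 of them in shCTRL cells, with a median of -0.39 that is opposite in sign to that of the 7 genes.

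Of 9 regulators of ribonucleotide reductase, 1 was higher and 2 lower with the knockdown in untreated cells, 3 were higher and 3 lower with it under gemcitabine, and 1 was higher and 3 lower with gemcitabine in shCTRL cells. The untreated counts are near the 17.5% and 19.3% of all genes. Cyclin F (CCNF), which marks RRM2 protein for degradation in G2, fell by 1.02 ± 0.165 with the knockdown in untreated cells (adjusted p 9.89e-09). It fell by 1.07 ± 0.161 with gemcitabine in shCTRL cells (adjusted p 1.22e-09), both in the authors' deposited tables. With both, against untreated shCTRL cells, CCNF fell by 2.00 ± 0.181 in the authors' deposited table (adjusted p 3.75e-26). E2F1, an activator of G1/S genes, fell by 0.84 ± 0.164 with the knockdown in untreated cells (adjusted p 2.37e-06). Under gemcitabine the knockdown lowered it by only 0.25 ± 0.104 (adjusted p 0.0407). Gemcitabine in shCTRL cells raised it by 1.31 ± 0.145 (adjusted p 1.19e-17), all in the authors' deposited tables. With knockdown and gemcitabine, E2F1 was still higher by 1.05 ± 0.158 than in untreated shCTRL cells in the authors' deposited table (adjusted p 6.76e-10). There RRM2, TK1 and TYMS were uncalled.

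**Figure D4:**
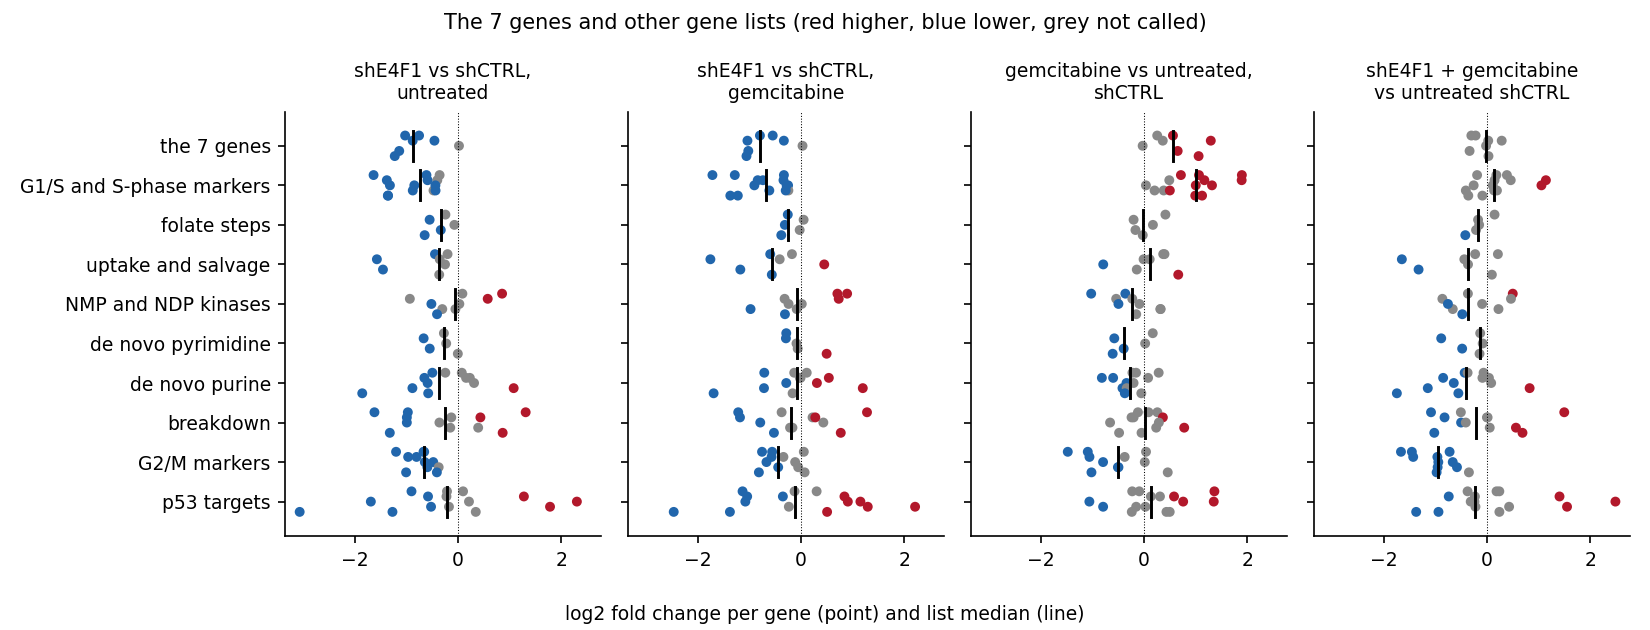
Log2 fold changes of single genes (points, red higher, blue lower, grey not called) and list medians (black lines) for the 7 genes and 9 other lists in the 4 deposited comparisons. Medians of the 7 genes and of the G1/S and S-phase markers lie left with the knockdown and right with gemcitabine in shCTRL cells. Those of the salvage, breakdown and p53 target lists do so too, at 0.11, 0.02 and 0.13 with gemcitabine in shCTRL cells. The folate, kinase, pyrimidine, purine and G2/M lists have medians below 0 in all panels.

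Cell cycle transcripts were read beside the 7 genes. Of 14 transcripts that peak at G1/S or in S phase, 11 were lower and 0 higher with the knockdown in untreated cells (median -0.73), and 13 were lower and 0 higher under gemcitabine (median -0.67). Gemcitabine in shCTRL cells made 10 of them higher and 0 lower (median 1.00). With both, 2 were higher, CCNE2 and E2F1, and 0 lower (median 0.14). E2F1 is also among the regulators above. CDC6, a licensing factor, fell by 1.63 ± 0.166 with the knockdown in untreated cells (adjusted p 5.44e-21) and rose by 1.89 ± 0.139 with gemcitabine in shCTRL cells (adjusted p 2.26e-39) in the authors' deposited tables. Of 11 transcripts that peak in G2 or mitosis, 10 were lower with the knockdown in untreated cells (median -0.65), 6 under gemcitabine (median -0.44), 7 with gemcitabine in shCTRL cells (median -0.50) and 10 with both (median -0.95), with 0 higher in each. The part of the cell cycle markers in the values of the 7 genes was not tested, and in bulk RNA fewer cells in S phase and less RNA per cell cannot be told apart.

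RRM2B is known as a p53 target, and 15 other p53 targets were read beside it. With gemcitabine in shCTRL cells 4 of them were higher and 2 lower (median 0.13), among them CDKN1A, the p21 inhibitor of cyclin-dependent kinases, which rose by 1.36 ± 0.170 in the authors' deposited table (adjusted p 7.48e-14). With the knockdown 3 were higher and 6 lower in untreated cells, and 6 higher and 6 lower under gemcitabine. RRM2B was uncalled in all 4 deposited tables beside these mixed lists.

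The genes most like each of the 7 were taken by distance over 3 log2 fold changes (both knockdown comparisons and gemcitabine in shCTRL cells) among 11377 genes. Nearest to RRM2 were RDM1 (distance 0.165), FANCB and ZWINT, and nearest to TK1 were MCM8 (distance 0.0991), POLA2 and CENPM. Nearest to TYMS were SDSL (distance 0.127), WDHD1 and KIF2C, to RRM1 GEN1 (distance 0.0436), SUV39H2 and NRG1, and to DTYMK CKAP2L (distance 0.0450), HIRIP3 and POC1A. DUT had PAK1, ZNF319 and ING3 nearest, and RRM2B had COPZ1, LMTK2 and TECR. Among the 7 genes themselves, the closest by rank was TK1 to RRM2, as the 29th nearest gene at a distance of 0.420. The 3 comparisons share control libraries, so the likeness is a description of these values only.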

How the data were processed

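Polyadenylated RNA from 12 libraries was sequenced as single-end reads of 50 bases from a stranded kit, per the labels. The submitters' processing notes name TopHat2 2.1.1 and Bowtie2 2.2.9, the build GRCh38.p7, HTSeq 0.9.0, and DESeq2 1.14.1 under R 3.4.0, as well as FastQC and bcl2fastq. Annotation, strand setting, filters and design formula were not given in the sources used here. The authors deposited 4 DESeq2 tables, which per the file headers hold per gene a mean normalized count (a signal), the log2 fold change and its standard error, a Wald score, a p-value and an adjusted p-value. The raw count table's 12 columns match no label and were not used, so depth and values per library are not reported. Whether the fold changes were moderated is not given in the sources used here. For genes with a deposited mean above 1 and up to 5, the largest log2 change in size was 1.63 to 2.04 and no standard error exceeded 0.537, while changes reached 4.38 to 5.26 for means above 100 and up to 1000. If they were moderated, folds of low genes are understated.

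From these tables, group levels were split from the mean by the fold change, assuming 3 libraries a group, and 95% intervals were taken as normal. Differences between tables used summed variances, a two-sided normal test and Benjamini-Hochberg adjustment over all genes (Python 3.11.15, pandas 2.3.3, scipy 1.17.1). The script was tested on simulated data with independent noise in each table. That setting differs from the tables that share the untreated shCTRL libraries. Tables are separate fits, so levels are compared within a table only. A gene was called at an adjusted p under 0.05. Named genes are, per list and comparison, at most the 4 called genes with the largest change; other genes named for their role or overlap were chosen after their values were seen. The 7 genes and the lists were chosen with earlier results of these data known, and some genes of the lists are not reported here. Alternatives were centring on the median gene, a mean of at least 50, no filter, a log2 fold change of at least 1 and another route through the tables.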

Additional observations from a re-analysis of the deposited data

Results flagged for a closer look

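None of the 7 genes had a knockdown effect that differed between gemcitabine and no treatment at an adjusted p under 0.05. Of the 98 genes tested in the nucleotide, cell cycle and p53 lists 11 (11.2%) did, beside 5.43% of all genes, so 0 of 7 does not set the 7 genes apart. Each value is the log2 knockdown effect with the drug minus the one without it, from the authors' deposited tables, with the Benjamini-Hochberg adjusted p of a normal test over all genes. Among genes of nucleotide supply, TK2, the mitochondrial thymidine kinase, had a difference of 0.70 (adjusted p 0.00450), and SHMT2, the mitochondrial serine hydroxymethyltransferase, 0.60 (adjusted p 0.00694). ADSL, of purine synthesis, had 0.64 (adjusted p 0.00464) and the nucleotidase NT5C 0.80 (adjusted p 0.0360). Each of these 4 had a lower log2 fold change with the knockdown in untreated cells than under gemcitabine.

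Among cell cycle genes, E2F1 had a difference of 0.59 (adjusted p 0.0422), CDT1, a licensing factor, 1.04 (adjusted p 0.00593), the mitotic kinase PLK1 0.71 (adjusted p 0.00994) and cyclin E1 (CCNE1) -0.92 (adjusted p 0.0261). Among p53 targets, SESN2 had 1.81 (adjusted p 1.87e-10), BTG2 -1.15 (adjusted p 0.000200) and CDKN1A -0.92 (adjusted p 0.00144).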

How the results depend on the processing

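Over the 42 values of the 7 genes in 6 comparisons, a mean of at least 50 and no filter changed no call. Both settings keep the fold changes and p-values and redo only the adjustment, so no direction could change and calls could hardly move. Centring kept the call and direction of 38. By the other route 30 of 35 were kept, with 3 calls lost. The tables joined by that route share libraries, so its standard errors are too large and the lost calls cannot show fragility. Requiring a log2 fold change of at least 1 left 3 genes of 6 in each knockdown comparison and 2 of 4 with gemcitabine in shCTRL cells. The standard error without shared libraries gave 6 genes in place of 2 in shE4F1 cells. Only RRM2B changed sign: centring gave 0.0357 with gemcitabine in shCTRL cells, 0.0400 in treated shE4F1 against untreated shCTRL cells and -0.0699 in the difference of knockdown effects, and the other route gave 0.00304 and -0.0101 in these last 2; none was called. The ratio of RRM2 to RRM2B per kb also moved with the length of RRM2, to 1.12 from 0.895 in untreated shE4F1 cells.

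Over all genes, the other route called 3642 genes in place of 9202 for the knockdown under gemcitabine and 3028 in place of 5599 for gemcitabine in shCTRL cells. It called 142 in place of 234 for gemcitabine in shE4F1 cells and 130 in place of 1137 for the difference. It sums 2 or 3 variances of tables that share libraries, so fewer calls follow from its larger standard errors. Without shared libraries 2931 of 20473 genes were called in shE4F1 cells, 49.9% of them higher. The fold threshold left 2637 of 7149 for the knockdown in untreated cells, 3048, 1738 and 2371 of 6345 in the next 3 deposited tables, and 462 for the difference.

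No paired analysis was possible because the count columns match no label; a replicate block, edgeR, other size factors and leaving out replicates were not run for the same reason. The untreated knockdown comparison has no other route through the tables. Depth is unknown here. The median standard error of genes with a mean of at least 1000 was 0.108 for the knockdown under gemcitabine and 0.149 to 0.162 in the 3 tables that contain the untreated shCTRL libraries.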

Other observations

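Of 12 genes of de novo purine synthesis, 6 were lower and 1 higher with the knockdown in untreated cells (median -0.37), where the 7 genes also had a median below 0, and 4 were lower and 3 higher with it under gemcitabine (median -0.08). In the same list 5 were lower and 0 higher with gemcitabine in shCTRL cells, and 6 were lower and 1 higher in treated shE4F1 against untreated shCTRL cells, in the authors' deposited tables. Over all genes, 19.3% were lower and 17.5% higher with the knockdown in untreated cells, and 20.8% and 20.3% with it under gemcitabine. The shares were 13.5% and 14.5% with gemcitabine in shCTRL cells, and 16.3% and 15.8% in treated shE4F1 against untreated shCTRL cells. PFAS, which makes formylglycinamidine ribonucleotide, fell by 1.85 ± 0.154 with the knockdown in untreated cells (adjusted p 8.57e-31) and was still at -1.74 ± 0.167 in treated shE4F1 against untreated shCTRL cells (adjusted p 1.86e-23) in the authors' deposited tables. IMPDH1, of the guanine nucleotide branch, rose by 1.08 ± 0.157 with the knockdown in untreated cells in the authors' deposited table (adjusted p 1.53e-10).

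Of 12 genes of nucleotide breakdown and pool cleaning, 3 were higher and 5 lower with the knockdown in untreated cells, and 3 higher and 4 lower under gemcitabine, beside 17.5% and 19.3%, and 20.3% and 20.8%, of all genes. SAMHD1, the hydrolase that degrades dNTPs, rose by 1.31 ± 0.170 in untreated cells (adjusted p 4.47e-13) and by 1.28 ± 0.101 under gemcitabine (adjusted p 2.13e-34) in the authors' deposited tables. In treated shE4F1 against untreated shCTRL cells, where none of the 7 genes was called, SAMHD1 was higher by 1.49 ± 0.177 in the authors' deposited table (adjusted p 1.61e-15).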
